A study of Mus musculus with 6 samples.

Results

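The genes described here are the insulin-like growth factor (IGF) ligands Igf1 and Igf2, the receptors Igf1r and Igf2r, and the binding proteins Igfbp2, Igfbp3, Igfbp4, Igfbp5, Igfbp6 and Igfbp7. They were taken by symbol from a table of RNA-seq read counts from mouse prostate, in which all 10 were found among 24091 genes, and all 10 had enough counts to be tested among 15050 genes. The study compared 3 groups of 2 libraries. Tumors labelled 12Q arose in males whose X chromosome held a humanised allele encoding a run of 12 glutamines, and tumors labelled 48Q in males whose allele encodes a run of 48. All tumor mice were heterozygous for a Ctnnb1 (β-catenin) allele with a floxed exon 3, whose removal stabilises β-catenin, and had PBCre-4, a Cre transgene under a probasin promoter that acts in prostate epithelium. WT is normal prostate from wild-type mice, without the humanised allele, the floxed allele or the transgene. Since tumor and alleles go together, their effects against WT cannot be told apart. Ages of the mice were not given in the labels. Nor do the labels state that a group's 2 libraries are from different animals. A p-value here sets a group difference against the spread between these libraries, and that spread may be technical.

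IGF1 and IGF2 are secreted growth factors that signal through the tyrosine kinase receptor encoded by Igf1r. The product of Igf2r, also the mannose 6-phosphate receptor, takes up IGF2 for degradation and carries lysosomal enzymes. Binding proteins hold the ligands outside the cell, and proteases that cut them set the ligands free. In the prostate, IGF1 is known as a stromal factor that acts on the epithelium.

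In 12Q tumors the RNA of Igfbp2 and Igfbp6 was almost gone and Igf1 was reduced, while Igfbp3, Igfbp4 and Igfbp7 were raised against WT. In 48Q tumors Igfbp7 was the 1 gene of the 10 past the threshold against WT. Set against each other, 12Q tumors had less Igf1, Igfbp2 and Igfbp6 than 48Q tumors. The 6 genes called in any comparison are shown by the 250 bases before their start site, taken from RefSeq sequences of build GRCm38.p6 (the build of mm10, on which the table rests). All 10 genes matched the RefSeq table. Each run reads 5′ to 3′ on the strand of its gene, and capitals mark every match, on either strand, to CTTTGA (core of the sites of TCF/LEF, the DNA-binding partners of β-catenin), AGAACA (half-site of steroid receptor elements) or the core promoter element TATAAA. The first 3 belong to the genes that were lower in 12Q tumors and the last 3 to those that were higher than in WT.
Igf1: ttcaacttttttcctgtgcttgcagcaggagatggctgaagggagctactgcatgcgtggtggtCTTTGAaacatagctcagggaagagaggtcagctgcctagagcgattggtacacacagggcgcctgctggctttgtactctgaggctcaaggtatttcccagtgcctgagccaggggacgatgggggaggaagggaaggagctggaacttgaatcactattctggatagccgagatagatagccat
Igfbp2: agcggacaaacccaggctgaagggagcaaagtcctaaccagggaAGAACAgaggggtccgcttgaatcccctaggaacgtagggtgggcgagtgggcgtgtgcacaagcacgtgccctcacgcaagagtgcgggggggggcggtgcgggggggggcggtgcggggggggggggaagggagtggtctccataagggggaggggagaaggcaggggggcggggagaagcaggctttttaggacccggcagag
Igfbp6: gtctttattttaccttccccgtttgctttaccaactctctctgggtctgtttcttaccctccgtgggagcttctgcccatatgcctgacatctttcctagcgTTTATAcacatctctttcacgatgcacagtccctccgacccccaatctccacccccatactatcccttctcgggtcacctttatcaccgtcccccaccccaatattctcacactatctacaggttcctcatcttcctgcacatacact
Igfbp3: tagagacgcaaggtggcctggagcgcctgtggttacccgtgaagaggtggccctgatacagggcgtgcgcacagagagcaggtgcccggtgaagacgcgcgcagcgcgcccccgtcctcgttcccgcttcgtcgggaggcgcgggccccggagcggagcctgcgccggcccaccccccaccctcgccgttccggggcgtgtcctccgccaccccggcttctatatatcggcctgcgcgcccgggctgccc
Igfbp4: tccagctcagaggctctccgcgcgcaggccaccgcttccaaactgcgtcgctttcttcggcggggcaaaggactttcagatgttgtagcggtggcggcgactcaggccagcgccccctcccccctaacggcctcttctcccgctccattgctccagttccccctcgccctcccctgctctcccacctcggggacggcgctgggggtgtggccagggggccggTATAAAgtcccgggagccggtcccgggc
Igfbp7: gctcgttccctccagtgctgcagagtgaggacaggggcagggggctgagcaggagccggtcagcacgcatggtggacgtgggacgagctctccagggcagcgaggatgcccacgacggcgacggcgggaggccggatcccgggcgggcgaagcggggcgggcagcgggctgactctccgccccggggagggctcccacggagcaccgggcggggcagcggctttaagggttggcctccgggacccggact
The windows lie at chr10:87860861-87861110 (plus strand), chr1:72824230-72824479 (plus), chr15:102143936-102144185 (plus), chr11:7213924-7214173 (minus), chr11:99040994-99041243 (plus) and chr5:77408046-77408295 (minus). For Igf1 the RefSeq start site lies inside the gene as the count table bounds it, and Igfbp2 has another RefSeq start site that is not shown. Among these 6 windows CTTTGA occurred once, in Igf1, and 13.8% of all 32851 such windows held it. AGAACA occurred once among them, in Igfbp2, against 16.1% of all windows. Neither was limited to called genes. Igf1r, not called, held CTTTGA at -89 to -84. Igf2, also not called, held CTTTGA at -207 to -202 and AGAACA at -85 to -80, before 1 of its start sites. TATAAA stood in Igfbp4, at positions -28 to -23 from the start site, and on the other strand in Igfbp6, at -148 to -143, against 12.4% of all windows. No 2 matches overlapped. The 3 windows of the lower genes held 52.8%, 67.2% and 49.6% G and C and 5, 14 and 7 CpG pairs. Those of the higher genes held 73.2%, 69.2% and 74.0% and 32, 22 and 26 CpG pairs, where the median over all windows was 52.4% and 6. High values were not limited to the higher genes. Of the genes not called, Igf1r held 77.6% and 42 CpG pairs and Igf2r 69.2% and 27. Igfbp5 held 58.8% and 10, and the windows of Igf2 held 47.6% to 68.8% and 1 to 22. These matches describe the letters of the windows and say nothing of binding.

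Libraries held 26416181 to 28559546 counts. Levels are in CPM, counts scaled to a library total of 1000000 after adjustment of the totals by the trimmed mean of M-values (TMM), and 3 counts in a library corresponded to 0.0856 to 0.156 CPM. Changes were tested with edgeR's quasi-likelihood test across all 15050 genes with Benjamini-Hochberg adjustment, and a gene is called past an adjusted p of 0.05. As a check of the tissue, the luminal markers Krt8 and Epcam were present in every group, at 883 ± 320 and 478 ± 90.3 CPM in 12Q, 256 ± 23.9 and 243 ± 59.1 CPM in 48Q and 495 ± 441 and 951 ± 586 CPM in WT (SD, n = 2). Pbsn, the probasin gene of prostate secretory cells, was at 4.23 ± 1.28 CPM in 12Q, 3101 ± 1207 CPM in 48Q and 22179 ± 8535 CPM in WT. Of all genes tested, the share called was 22.4% for 12Q against WT, 5.18% for 48Q against WT and 4.17% for the 2 tumor genotypes (12Q against 48Q). By direction these were 1687 genes higher and 1683 lower, 595 higher and 185 lower, and 152 higher and 475 lower. With library totals in place of TMM they were 3266 and 1032, 1921 and 83, and 62 and 379, and the all-gene median of the log2 fold change moved to 0.48, 0.71 and -0.19, where TMM gave -0.01, 0.02 and 0.0020.

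Of the ligands, Igf1 was lower in 12Q tumors than in both other groups, and Igf2 passed no test by edgeR. Igf1 (mm10, chromosome 10, 87858265 to 87937047) stood at 6.03 and 5.42 CPM in 12Q tumors, 21.0 and 23.8 CPM in 48Q tumors and 15.1 and 24.0 CPM in WT prostate. Both 12Q libraries lay below all others, and the 48Q and WT libraries overlapped. Igf1 was 3.41-fold lower in 12Q than in WT (log2 fold change -1.77 with an SE of 0.34, edgeR adjusted p = 0.0174) and 3.91-fold lower in 12Q than in 48Q (-1.97 ± 0.34, edgeR adjusted p = 0.0381). Against WT, the edgeR adjusted p of Igf1 was 0.0627 without 12Q replicate 2, 0.0518 without 48Q replicate 1, 0.0543 without 48Q replicate 2 and 0.0590 with 12Q and WT alone in the fit, and the log2 value lay between -2.06 and -1.40. Against 48Q it was 0.0914 and 0.0910 without 12Q replicate 1 or 2 and 0.202 and 0.194 without 48Q replicate 1 or 2. The log2 difference of 48Q from WT was 0.20 ± 0.33 and did not pass (edgeR adjusted p = 0.744).

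Igf2 (chromosome 7, 142650768 to 142666816) ranked last of the 10 per kilobase of gene in 48Q and WT. Its level was 4.03 and 6.04 CPM in 12Q, 10.4 and 7.22 CPM in 48Q and 2.19 and 3.85 CPM in WT. The groups did not overlap, with 48Q at the top and WT at the bottom, but no comparison passed. The log2 differences were 0.74 ± 0.50 in 12Q against WT, 1.54 ± 0.50 in 48Q against WT and, between tumors, -0.81 ± 0.49 in 12Q against 48Q (SE, edgeR adjusted p = 0.319, 0.125 and 0.334). DESeq2 did call Igf2 higher in 48Q than in WT (log2 1.52, DESeq2 adjusted p = 0.0319). Exons of Igf2 overlap those of Gm49394 on its own strand and of the antisense gene Igf2os, so its reads are uncertain, although Igf2os itself held 0 to 5 counts in a library. Per kilobase of gene, the level of Igf2 was 1.22 and 2.03 times that of Igf1 in the 12Q libraries, 0.904 and 0.553 times in 48Q and 0.265 and 0.292 times in WT.

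**Figure D1:**
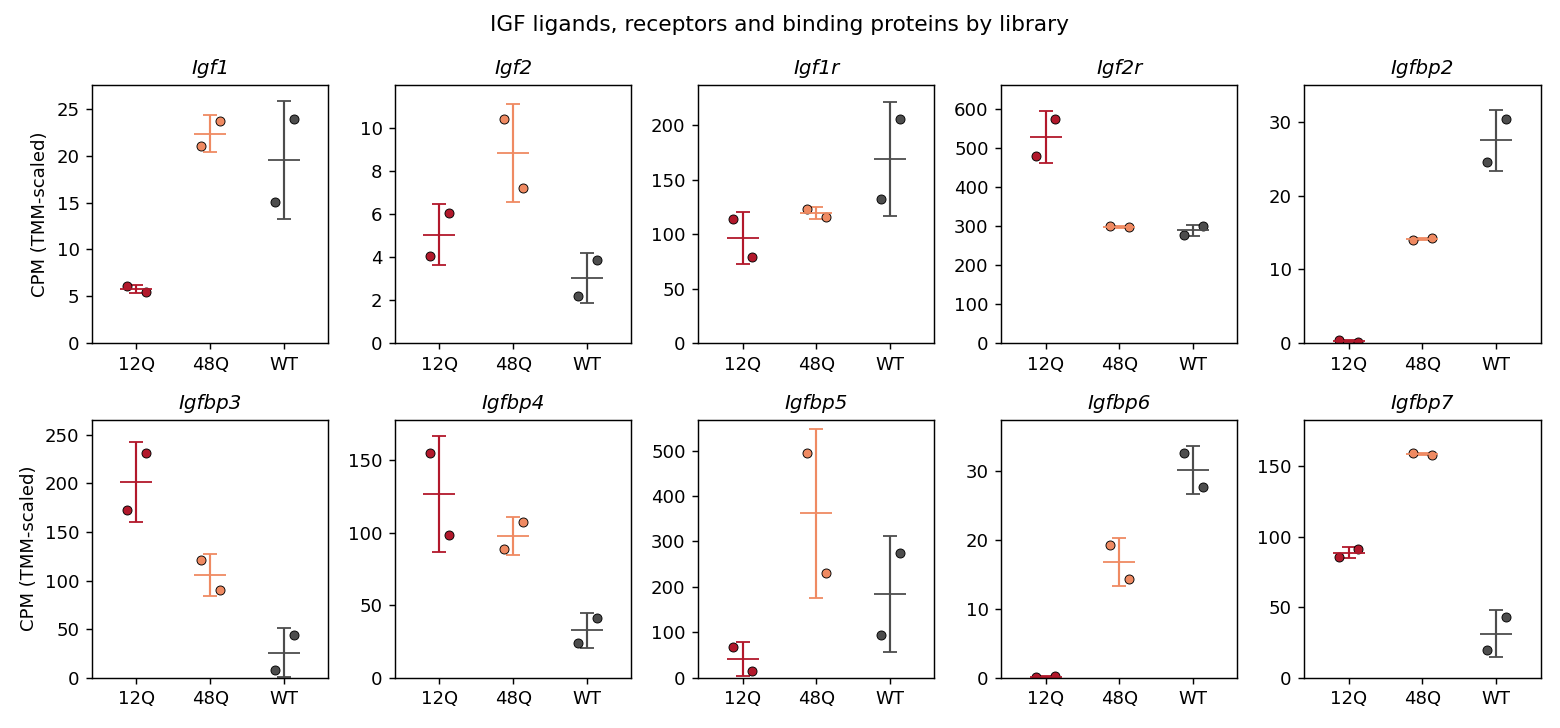
Level of the 10 genes in CPM (linear axes from 0) in 12Q, 48Q and WT, with a point for each library and a bar with whiskers for the mean ± SD of 2 libraries. Igfbp2 and Igfbp6 lie at or below 0.407 CPM in both 12Q libraries, and Igfbp7 lies at 85.7 CPM or above in all 4 tumor libraries against at most 42.8 CPM in WT.

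Neither receptor passed the test by edgeR in any comparison. Igf1r (chromosome 7, 67952257 to 68233667) was at 114 and 79.4 CPM in 12Q, 123 and 115 CPM in 48Q and 132 and 206 CPM in WT. Both tumor groups lay below both WT libraries, by log2 values of -0.81 ± 0.31 in 12Q and -0.50 ± 0.30 in 48Q, and neither passed (SE, edgeR adjusted p = 0.104 and 0.347). With library totals the 48Q value was 0.16. Between tumors, the log2 value of Igf1r was -0.31 ± 0.30 (edgeR adjusted p = 0.546).

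Igf2r (chromosome 17, 12682406 to 12769706) stood at 479 and 574 CPM in 12Q, 298 and 296 CPM in 48Q and 278 and 298 CPM in WT. The 12Q libraries lay above all others, and the 48Q and WT libraries overlapped. In 12Q against WT the log2 value of 0.87 ± 0.25 missed the threshold (edgeR adjusted p = 0.0530), and it passed without 12Q replicate 1 (1.05, edgeR adjusted p = 0.0412), with library totals (1.38, edgeR adjusted p = 0.0164) and by DESeq2 (0.87, DESeq2 adjusted p = 0.00303). In 12Q against 48Q the log2 value was 0.83 ± 0.25 (edgeR adjusted p = 0.110), which passed by DESeq2 (adjusted p = 0.00788). For 48Q against WT it was 0.05 ± 0.25 (edgeR adjusted p = 0.929).

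Among the binding proteins, Igfbp2 and Igfbp6 had the largest differences of the 10 genes in both comparisons that involve 12Q. Igfbp2 (chromosome 1, 72824480 to 72852471) encodes a binding protein that prefers IGF2 to IGF1 and also binds integrins. It was at 0.407 and 0.186 CPM in 12Q, from 11 and 6 counts, at 14.001 and 14.2 CPM in 48Q and at 24.6 and 30.5 CPM in WT. The 3 groups did not overlap, and the 48Q libraries lay between the others. Igfbp2 was 93.0-fold lower in 12Q than in WT (log2 fold change -6.54 with an SE of 0.49, edgeR adjusted p = 0.0027) and 47.6-fold lower in 12Q than in 48Q (-5.57 ± 0.48, edgeR adjusted p = 0.0125). By counting error alone, the CPM ratio of 12Q to WT was 0.0103 (exact 95% interval 0.00599 to 0.0166). That of 12Q to 48Q was 0.0203 (0.0118 to 0.0327). With 1 library left out in turn both calls held, at log2 values from -7.13 to -6.06 against WT and from -6.19 to -5.09 against 48Q, the extremes being without 12Q replicate 1 and without 12Q replicate 2. Between 48Q and WT the log2 value of Igfbp2 was -0.97 ± 0.37 and did not pass (edgeR adjusted p = 0.176), while DESeq2 called it lower (DESeq2 adjusted p = 0.0457).

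Igfbp6 (chromosome 15, 102144186 to 102149512) encodes the binding protein with the strongest preference for IGF2. Its level was 0.0370 and 0.217 CPM in 12Q, from 1 and 7 counts, 19.3 and 14.3 CPM in 48Q and 32.5 and 27.6 CPM in WT. As with Igfbp2, the groups did not overlap and 48Q lay in between. Igfbp6 was 220.3-fold lower in 12Q than in WT (log2 fold change -7.78 with an SE of 0.67, edgeR adjusted p = 0.00294) and 123-fold lower in 12Q than in 48Q (-6.94 ± 0.65, edgeR adjusted p = 0.0157). Counting error alone, by an exact 95% interval, put the CPM ratio of 12Q to WT at 0.00451 (0.00194 to 0.00892) and that of 12Q to 48Q at 0.00805 (0.00347 to 0.0159). Both calls held with each library left out. Without 12Q replicate 1 the ratio was 0.00725 (0.00291 to 0.0150) to WT and 0.0129 (0.00519 to 0.0268) to 48Q. Without 12Q replicate 2, which left 1 count, it was 0.00124 (3.1e-05 to 0.00692) to WT and 0.00221 (5.6e-05 to 0.0123) to 48Q. Between 48Q and WT the log2 value of Igfbp6 was -0.84 ± 0.46 and did not pass (edgeR adjusted p = 0.309).

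Igfbp3, Igfbp4 and Igfbp7 went the other way. Igfbp3 (chromosome 11, 7206091 to 7213923) encodes the main carrier of IGFs in blood. It was at 172 and 231 CPM in 12Q, 121 and 90.4 CPM in 48Q and 8.03 and 43.6 CPM in WT. All tumor libraries lay above both WT libraries, which differed 5.43-fold from each other. Igfbp3 was 7.80-fold higher in 12Q than in WT (log2 fold change 2.96 with an SE of 0.74, edgeR adjusted p = 0.0360). The call was lost without 12Q replicate 1 (3.21, edgeR adjusted p = 0.0694), without 12Q replicate 2 (2.74, edgeR adjusted p = 0.105) and with 12Q and WT alone in the fit (edgeR adjusted p = 0.0534), and the log2 value was 4.65 without WT replicate 2 and 2.21 without WT replicate 1. In 48Q against WT the log2 value of 2.03 ± 0.72 did not pass (edgeR adjusted p = 0.150), but it did without WT replicate 2 (3.71, edgeR adjusted p = 0.0373) and by DESeq2 (DESeq2 adjusted p = 0.0230). Between tumors the difference was 0.93 ± 0.69 (edgeR adjusted p = 0.420).

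Igfbp4 (chromosome 11, 99041260 to 99052643) encodes a binding protein that the protease pappalysin 1 cleaves. The libraries held 155 and 98.2 CPM in 12Q, 88.8 and 107 CPM in 48Q and 24.2 and 41.1 CPM in WT. The tumor groups overlapped each other and lay above WT. Igfbp4 was 3.87-fold higher in 12Q than in WT (log2 fold change 1.95 with an SE of 0.36, edgeR adjusted p = 0.0158), a call lost without WT replicate 1 (1.63, edgeR adjusted p = 0.0540). Igfbp4 in 48Q against WT missed the threshold at a log2 value of 1.59 ± 0.36 (edgeR adjusted p = 0.0583), and passed without 12Q replicate 1 (edgeR adjusted p = 0.0497), with 48Q and WT alone in the fit (edgeR adjusted p = 0.0484), with library totals (edgeR adjusted p = 0.0249) and by DESeq2 (DESeq2 adjusted p = 0.00131). Between tumors the log2 value was 0.37 ± 0.35 (edgeR adjusted p = 0.524).

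Igfbp7 (chromosome 5, 77349240 to 77408045) encodes a relative of the binding proteins that binds IGFs weakly and lies in the matrix around vessels. It was at 85.7 and 91.5 CPM in 12Q, 159 and 158 CPM in 48Q and 19.5 and 42.8 CPM in WT. The 3 groups did not overlap, and here 48Q was the highest. Igfbp7 was 2.84-fold higher in 12Q than in WT (log2 fold change 1.51 with an SE of 0.38, edgeR adjusted p = 0.0356) and 5.09-fold higher in 48Q than in WT (2.35 ± 0.39, edgeR adjusted p = 0.0307). The 12Q call was lost with any 1 of the 4 tumor libraries left out (edgeR adjusted p = 0.0673 to 0.0985) and with 12Q and WT alone in the fit (edgeR adjusted p = 0.0722), and the log2 value was 1.05 without WT replicate 1 and 2.18 without WT replicate 2. The 48Q call was lost without 48Q replicate 1 or 2. It was also lost without WT replicate 1, in a fit that called no gene in 48Q against WT. The log2 value was 1.89 without WT replicate 1 and 3.02 without WT replicate 2. In 12Q against 48Q it was -0.84 ± 0.37 and did not pass (edgeR adjusted p = 0.208). An exon of Igfbp7 overlaps one of Polr2b on the other strand, and since the strand setting of the counting is unknown its reads are uncertain.

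Igfbp5 (chromosome 1, 72858065 to 72874865), whose product binds matrix as well as IGFs, differed 4.77-fold, 2.15-fold and 2.93-fold between the 2 libraries of 12Q, 48Q and WT. Its level was 68.4 and 14.4 CPM in 12Q, 494 and 230.2 CPM in 48Q and 93.5 and 274 CPM in WT. The 12Q libraries lay below all others, and 48Q and WT overlapped. The log2 values were -2.15 ± 0.86 in 12Q against WT, -3.13 ± 0.89 in 12Q against 48Q and 0.98 ± 0.83 in 48Q against WT (SE), and none passed (edgeR adjusted p = 0.120, 0.0973 and 0.499). With 1 library left out they ran from -3.62 (without 12Q replicate 1) to -1.18 (without WT replicate 2), from -4.63 to -2.39 (without 12Q replicate 1 or 2) and from 0.32 (without 48Q replicate 1) to 1.94 (without WT replicate 2), and none passed. DESeq2 called Igfbp5 lower in 12Q than in WT and than in 48Q (DESeq2 adjusted p = 0.0188 and 0.000813). Igfbp5 and Igfbp2 are neighbours that face each other on chromosome 1, with 5.6 kb and 0 listed genes between them.

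**Figure D2:**
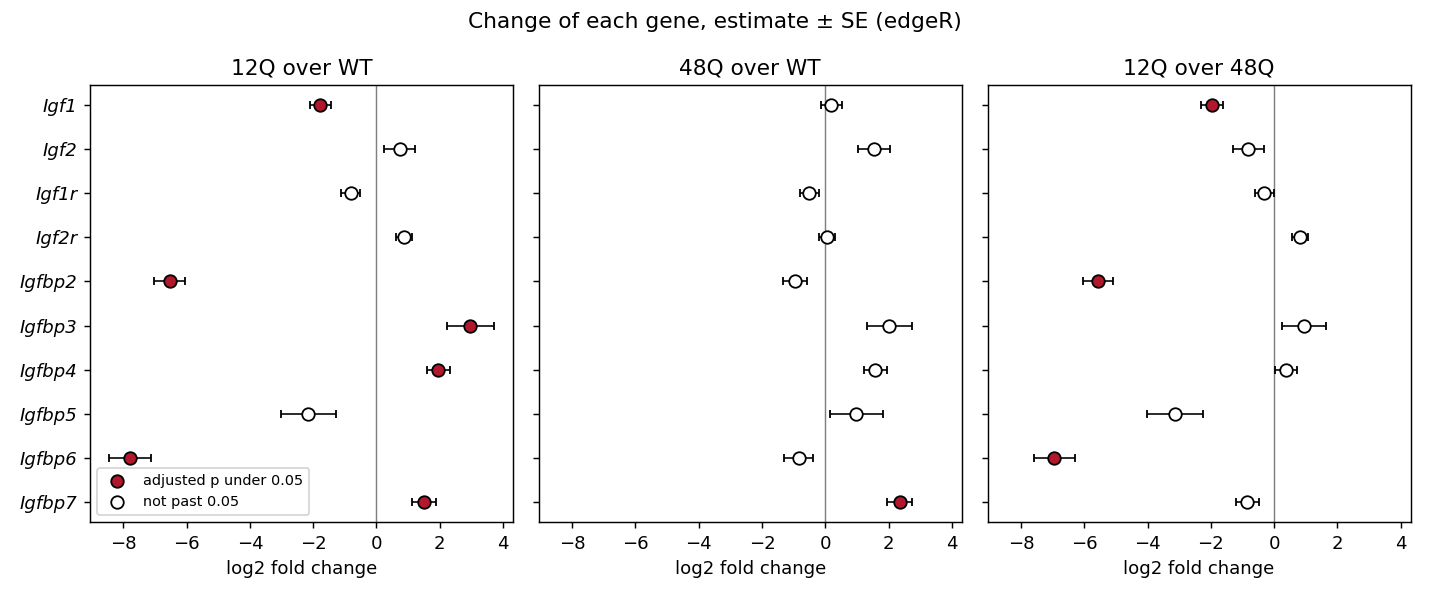
Log2 fold change ± SE of each gene in 12Q over WT, 48Q over WT and 12Q over 48Q, on 1 horizontal scale, with filled points past an edgeR adjusted p of 0.05. Igfbp2 and Igfbp6 lie at -6.54 and -7.78 in 12Q over WT and at -5.57 and -6.94 in 12Q over 48Q, but at -0.97 and -0.84 in 48Q over WT.

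Counted over the 10 genes, 3 were higher and 3 lower in 12Q than in WT, where 11.2% of all genes tested were called higher and 11.2% lower. For 48Q against WT, 1 was higher, where 3.95% of all genes were, and 0 were lower by edgeR, where 1.23% of all genes were. At an unadjusted p under 0.05, 1 of the 10 was lower in 48Q, and DESeq2 also called 1. Of all 15050 genes tested, 1503 and 979 were lower by these measures. In 12Q against 48Q, 3 were lower, where 3.16% of all genes were, and 0 were higher by edgeR, where 1.01% were. The unadjusted count of higher genes among the 10 was 1, and DESeq2 also called 1. Of all 15050 genes tested, 1568 and 920 were higher by these measures. The median log2 fold change of the 10 was -0.04 in 12Q against WT, 0.59 in 48Q against WT and, between tumors, -0.82 in 12Q against 48Q, beside -0.01, 0.02 and 0.0020 over all genes. Both comparisons with WT use the same WT libraries.

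Per kilobase of gene, so that genes can be set beside each other, the order of levels differed between the groups. In 12Q tumors Igfbp3, Igfbp7, Igfbp4 and Igf2r led, at 82.8 ± 17.0, 73.4 ± 3.37, 61.4 ± 19.4 and 59.3 ± 7.56 CPM per kb (SD, n = 2), and the ranges of neighbours among them overlapped. After a clear step came Igf1r (7.52 ± 1.88) and Igfbp5 (7.08 ± 6.54), which overlapped, then Igf2 (1.11 ± 0.31), Igf1 (0.695 ± 0.0528), and last Igfbp2 (0.210 ± 0.111) and Igfbp6 (0.0987 ± 0.0989), which overlapped. In 48Q tumors Igfbp7 stood alone at the top at 131 ± 0.595 CPM per kb, followed by Igfbp5 (61.9 ± 31.9), Igfbp4 (47.5 ± 6.35) and Igfbp3 (43.3 ± 8.80), whose neighbours overlapped. Igf2r (33.5 ± 0.190), Igfbp6 (13.1 ± 2.71), Igfbp2 (10.001 ± 0.101), Igf1r (9.29 ± 0.416), Igf1 (2.72 ± 0.238) and Igf2 (1.95 ± 0.501) followed without overlap. In WT prostate the first 8, from Igf2r (32.4 ± 1.65) and Igfbp5 (31.4 ± 21.8) to Igf1r (13.2 ± 4.09) and Igfbp3 (10.6 ± 10.3), overlapped with their neighbours, and Igf1 (2.37 ± 0.764) and Igf2 (0.668 ± 0.259) lay below them.

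The make-up of binding protein RNA is given next, as the share of each gene in a library. Igfbp2 and Igfbp6 held 0.126% and 0.0126% of the summed CPM per kb of the 6 binding proteins in 12Q replicate 1 and 0.0596% and 0.0763% in 12Q replicate 2. They held 2.98% and 4.49% in 48Q replicate 1, 3.59% and 3.98% in 48Q replicate 2, 19.4% and 28.1% in WT replicate 1 and 13.3% and 13.2% in WT replicate 2. Igfbp3 took 30.9% and 42.9% in the 12Q libraries, 14.8% and 13.2% in 48Q and 3.67% and 10.96% in WT. The sum itself was 229 and 221 CPM per kb in 12Q, 334 and 281 CPM per kb in 48Q and 89.9 and 163 CPM per kb in WT, so both tumor groups lay above WT. The summed level of the ligands was 1.62 and 1.99 CPM per kb in 12Q, 4.85 and 4.48 CPM per kb in 48Q and 2.32 and 3.76 CPM per kb in WT, with 12Q lowest. These shares and sums were not tested.

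**Figure D3:**
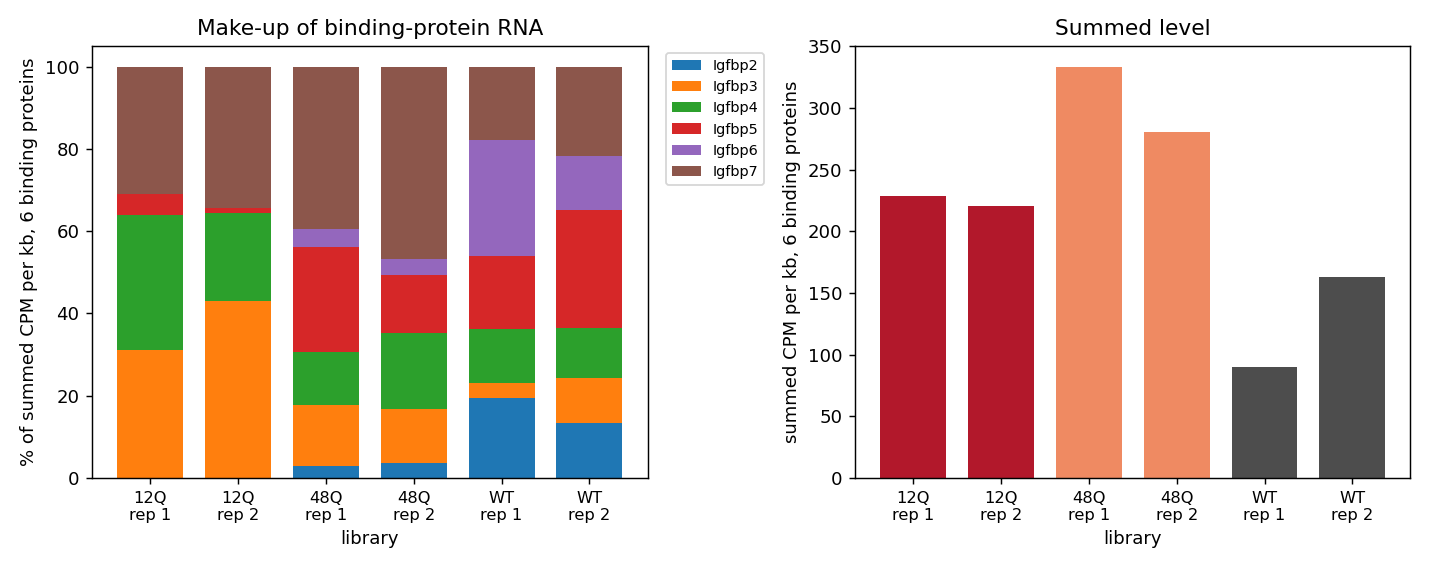
Share of each binding protein in the summed CPM per kb of the 6 (left, in %) and that sum (right, in CPM per kb) in each of the 6 libraries. Igfbp3, Igfbp4 and Igfbp7 fill most of the 12Q bars, Igfbp2 and Igfbp6 are visible in 48Q and WT, and the sums run from 221 to 334 CPM per kb in tumors against 89.9 and 163 CPM per kb in WT.

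Because these are whole tissue samples, fewer cells of a type and less RNA per cell cannot be told apart, and markers of the cell types known to make IGF genes moved with the groups. All 8 smooth muscle markers were lower in 12Q than in WT, with a summed level of 54.6 to 55.4 CPM in 12Q, 319 to 888 CPM in 48Q and 2370 to 6002 CPM in WT, and none of them was at 0. Of these, 3 were lower in 48Q than in WT and 5 lower in 12Q than in 48Q. All 6 basal epithelial markers were lower in 12Q than in WT, with sums of 47.7 to 60.0 CPM in 12Q, 489.9 to 564 CPM in 48Q and 755 to 1262 CPM in WT. Of these, 5 were also lower in 12Q than in 48Q. Of 8 fibroblast markers, 4 were lower in 12Q than in WT and 4 lower in 12Q than in 48Q, with sums of 189 to 476 CPM in 12Q, 1123 to 1229 CPM in 48Q and 721 to 797 CPM in WT. Dpt, a matrix gene of fibroblasts, was at 0 counts in both 12Q libraries. Against the direction of the sums, the mean of Col1a1 was higher in 12Q (134 CPM) than in WT (43.4 CPM). Likewise the mean of Dpt was lower in 48Q (10.5 CPM) than in WT (30.2 CPM). Neither difference passed. Of 7 endothelial markers, 3 were higher and 1 lower in 12Q than in WT, with sums of 246 to 289 CPM in 12Q, 123 to 125 CPM in 48Q and 75.4 to 106 CPM in WT. In 48Q against WT the single call was lower, against the direction of the sums. The lower gene was Emcn in both comparisons (log2 fold change -1.82 in 12Q and -2.29 in 48Q, edgeR adjusted p = 0.0187 and 0.0296). Of 6 macrophage markers, 4 were higher and 1 lower in 12Q than in WT, and 4 were higher in 48Q than in WT, with sums of 146 to 177 CPM in 12Q, 203 to 221 CPM in 48Q and 57.0 to 63.6 CPM in WT. The lower one was Cd163, at a mean of 0.0340 CPM in 12Q, from 1 count in each library, 2.96 CPM in 48Q and 3.52 CPM in WT, and it was also lower in 12Q than in 48Q (edgeR adjusted p = 0.00554 and 0.0229).

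Markers of other cell types differed between the groups as well. Of 6 squamous epithelial markers, 4 were higher and 1 lower in 12Q than in WT and 3 higher in 48Q than in WT, with sums of 77.8 to 83.0 CPM in 12Q, 21.5 to 30.2 CPM in 48Q and 2.48 to 3.39 CPM in WT. Of 5 seminal vesicle markers, 1 was higher in 12Q and 2 higher in 48Q than in WT, and 3 were lower in 12Q than in 48Q, with sums of 1.52 to 2.35 CPM in 12Q, 24.9 to 42.0 CPM in 48Q and 0.730 to 0.884 CPM in WT. Of 5 skeletal muscle markers, 3 could be tested. Of these, 2 (Acta1 and Ckm) were lower in 12Q and 1 (Acta1) lower in 48Q than in WT. Their sums were 2.38 to 6.25 CPM in 12Q, 3.82 to 9.57 CPM in 48Q and 74.5 to 202 CPM in WT. Most of the WT sum was Acta1, at a mean of 132 CPM beside a mean sum of 138 CPM. Mylpf did not pass, and its mean was higher in 12Q (3.90 CPM) than in WT (1.07 CPM). Tnnt3 had means of 0.145, 0.130 and 0.137 CPM in 12Q, 48Q and WT, and Myh4 was at 0 counts in all groups. Luminal markers summed to 6183 to 8187 CPM in 12Q, 5524 to 7157 CPM in 48Q and 22530 to 38474 CPM in WT. Most of the WT sum was Pbsn, at a mean of 22179 CPM beside a mean sum of 30502 CPM. Pbsn was the 1 of 7 that was lower in 12Q than in WT, and it was also lower in 12Q than in 48Q. The other 6 luminal markers passed in no comparison. Of 5 adipocyte markers, 3 could be tested and 1 (Fabp4) was higher in 12Q than in WT. Adipoq, Lep and Cidec were at 0 counts in 12Q. Their WT means were low as well, at 0.420, 0.0221 and 0.376 CPM, and each was at 0 in its lower WT library. The part of these cell types in the changes of Igf1 and of the binding proteins was not tested.

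**Figure D4:**
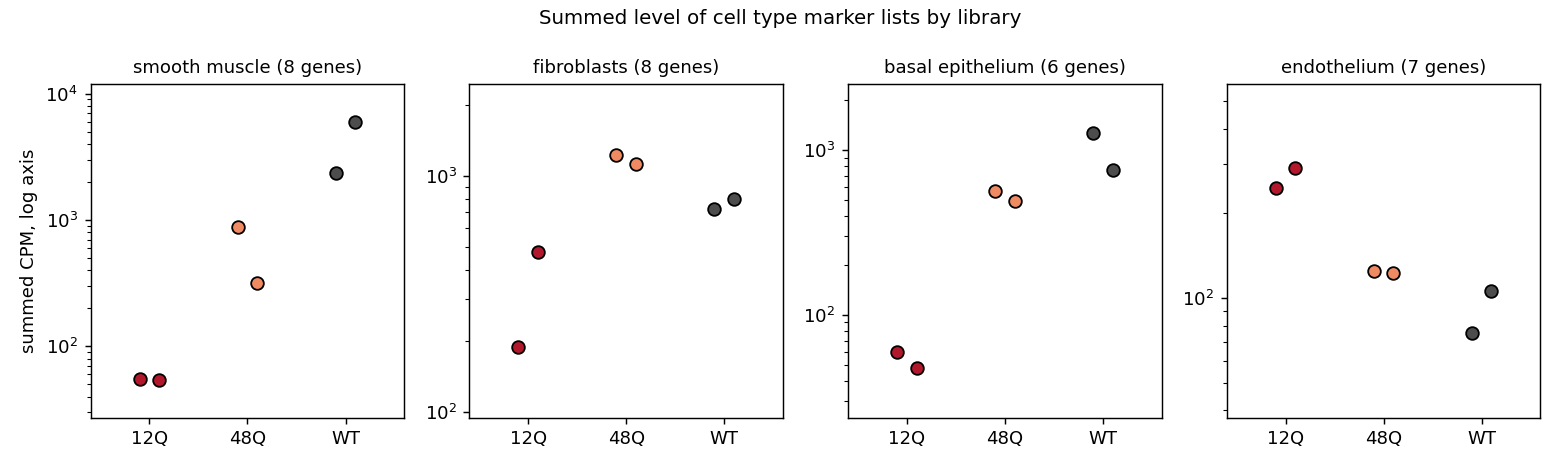
Summed CPM (log axis) of the smooth muscle, fibroblast, basal epithelial and endothelial marker lists in each library of 12Q, 48Q and WT, a point for each library. The 12Q libraries lie lowest for smooth muscle (54.6 to 55.4), fibroblasts (189 to 476) and basal cells (47.7 to 60.0) and highest for endothelium (246 to 289).

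The genes most like each called member were sought among 9211 genes of at least 10 CPM on average, by the root mean square difference of log2 CPM, centred for each gene, over the 6 libraries. For Igfbp6 they were Trp63, the p63 transcription factor of basal cells (0.360), Ogn, a matrix proteoglycan (0.581), and Hoxd13 (0.594). For Igfbp2 they were Fhl1 (0.388), Pnliprp1 (0.525) and Sh3bgr (0.606). Those nearest to Igfbp3 were Aldh1a1, a retinal dehydrogenase (0.292), and the endothelial genes Flt1 (0.315) and Vwf (0.317). For Igfbp4 they were Slc37a4 (0.0988), Zfp185 (0.189) and Eng, an endothelial coreceptor (0.197). Znrf3, a feedback inhibitor of Wnt signalling, was nearest to Igfbp7 (0.116), before Mllt3 (0.153) and Pcdh7 (0.232). Igf1 was nearest to Gprasp1 (0.118), Gt(ROSA)26Sor (0.177) and Mkx, a transcription factor of tendon (0.182). Within the family, the nearest pair was Igf2 and Igfbp7 (0.474), and Igfbp2 and Igfbp6 were each other's nearest at 0.892. These distances rest on 3 groups and carry no test.

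Of 44 further genes of the pathway, 38 had enough counts. In 12Q against WT, 3 were higher and 6 lower, and in 48Q against WT 1 was higher and 2 lower. In 12Q against 48Q, 1 was lower and 0 were higher by edgeR. At an unadjusted p under 0.05, 4 of the 38 were higher in 12Q than in 48Q, and DESeq2 called 3. Of all 15050 genes tested, 1568 and 920 were higher by these measures. By the edgeR adjusted p, 22.4%, 5.18% and 4.17% of all genes were called in the 3 comparisons. The 9 of 38 in 12Q against WT were thus close to the share of all genes. Their median log2 fold changes were -0.37, -0.20 and -0.06. Igfals, Igfbp1, Igfbpl1, Igf2bp1, Igf2bp3 and Igf2os had too few counts. H19 (chromosome 7, 142575530 to 142578146), the imprinted noncoding RNA gene that neighbours Igf2, was at 35.6 and 22.7 CPM in 12Q and 9.996 and 23.7 CPM in 48Q, while each WT library held 3 counts (0.156 and 0.133 CPM). The tumor groups overlapped and lay far above WT. H19 was higher in both tumor groups (log2 fold change 7.62 ± 0.69 in 12Q and 6.83 ± 0.68 in 48Q, edgeR adjusted p = 0.00344 and 0.0108), with CPM ratios to WT of 199 (exact 95% interval 91.3 to 544) and 119 (54.4 to 324). In 48Q the log2 value was 7.32 without 48Q replicate 1 and 6.07 without 48Q replicate 2. Without WT replicate 1 the log2 value was 6.94 and the 48Q call was lost, in a fit that called no gene in 48Q against WT. Exons of H19 overlap those of Mir675, Gm27483 and Gm27786.

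The pappalysins, proteases that cleave binding proteins, had no counts in 12Q tumors. Pappa (chromosome 4, 65124174 to 65357509) had 0 counts in each 12Q library, 87 and 129 counts in the 48Q libraries and 14 and 71 counts in the WT libraries. Taken against 3 counts in each 12Q library, it was at least 18.98-fold lower in 12Q than in WT and at least 30.9-fold lower than in 48Q (edgeR adjusted p = 0.0179 and 0.0402). The bound against WT was 7.16-fold without WT replicate 2 and 30.8-fold without WT replicate 1. The call was lost against WT without 12Q replicate 2 (edgeR adjusted p = 0.0602), and against 48Q with library totals (0.0531) and with any 1 of the tumor libraries left out (0.0906 to 0.127). Pappa2 (chromosome 1, 158711731 to 158957438) had 0 counts in each 12Q library, 29 and 43 counts in the 48Q libraries and 23 and 209 counts in the WT libraries, and was at least 51.2-fold lower in 12Q than in WT (edgeR adjusted p = 0.0199). Its bound was 11.8-fold without WT replicate 2 and 90.7-fold without WT replicate 1, and the call was lost without 12Q replicate 1 or 2 (edgeR adjusted p = 0.0560 and 0.0687). The difference of Pappa2 between 12Q and 48Q did not pass (edgeR adjusted p = 0.0785). Exons of Pappa2 overlap those of 1600012P17Rik.

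Among docking and signalling genes, Grb10, an adaptor that restrains insulin and IGF receptors, was at 6.99 and 9.28 CPM in 12Q, 9.996 and 9.15 CPM in 48Q and 47.9 and 24.9 CPM in WT. It was lower in 12Q than in WT (log2 fold change -2.16 with an SE of 0.40, edgeR adjusted p = 0.0161), a call lost without 12Q replicate 1 (edgeR adjusted p = 0.0598), and lower in 48Q than in WT (-1.93 ± 0.40, edgeR adjusted p = 0.0489). The 48Q call of Grb10 was lost with DESeq2's size factors, library totals, the 2 groups alone or a replicate block (0.0509, 0.0798, 0.0547 and 0.0553). That call was also lost with each library left out except WT replicate 2. The fit without WT replicate 1 called no gene in 48Q against WT. Irs1, a docking protein of both receptors, was at 115 and 85.0 CPM in 12Q, 57.3 and 78.7 CPM in 48Q and 178 and 181 CPM in WT. Irs1 was lower in 48Q than in WT (-1.40 ± 0.27, edgeR adjusted p = 0.0422), a call lost with library totals (-0.71, 0.0969). The call was also lost with any 1 of the 48Q or WT libraries left out, among them the fit without WT replicate 1. In 12Q against WT the log2 value of Irs1, -0.84 ± 0.26, did not pass (edgeR adjusted p = 0.0656).

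Irs4, another docking gene, had 1 count in each 12Q library, 28 and 14 counts in the 48Q libraries and 59 and 264 counts in the WT libraries. It was lower in 12Q than in WT, with a CPM ratio of 0.00436 (exact 95% interval 0.000526 to 0.0159, edgeR adjusted p = 0.00847). The ratio was 0.00289 (0.000348 to 0.0105) without WT replicate 1 and 0.01095 (0.0013 to 0.0414) without WT replicate 2, and the call held with each library left out. Rps6kb1, the S6 kinase gene downstream of mTOR, was at 49.5 and 56.0 CPM in 12Q, 75.6 and 88.0 CPM in 48Q and 131 and 119.6 CPM in WT, and was lower in 12Q than in WT (log2 fold change -1.25 with an SE of 0.21, edgeR adjusted p = 0.0126). Exons of Irs1, Irs4 and Rps6kb1 overlap those of Gm9747, Gm15295 and Rnft1 on the other strand. The other genes of the pathway called in 12Q against WT were Ctsd and Foxo3, which were higher, and Pik3r1, which was lower.

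**Figure D5:**
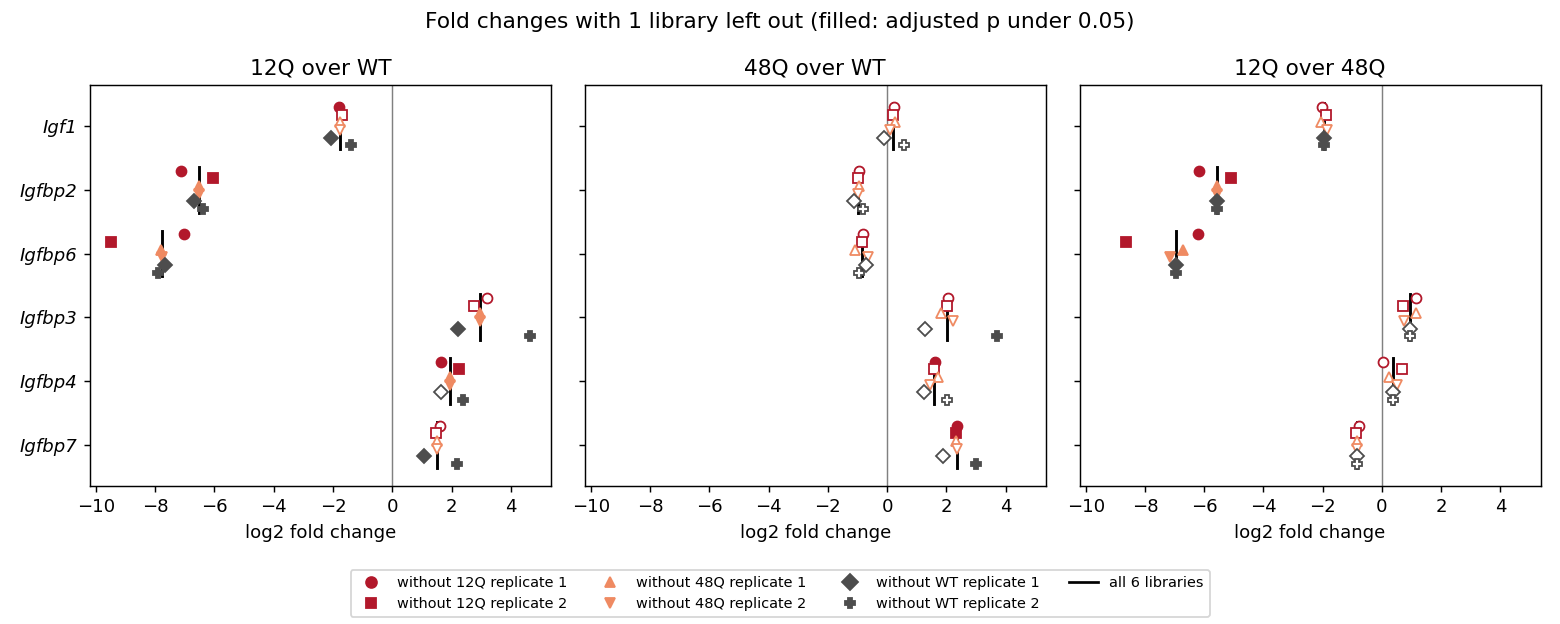
Log2 fold change of the 6 called genes with all libraries (black line) and with each library left out (symbols, filled where the edgeR adjusted p is under 0.05). Igfbp2 and Igfbp6 keep filled symbols in both panels with 12Q on top, Igfbp3 moves between 2.21 and 4.65 in 12Q over WT, and the symbol of Igfbp6 without 12Q replicate 2 rests on 1 count.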

How the data were processed

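Per the labels' protocols, RNA-Bee served to extract RNA from fresh tumors or normal prostate, and Kapa RNA HyperPrep to build libraries. The authors deposited 1 table of read counts, whole numbers for each gene, for 6 libraries, with each gene's coordinates and length in kb. Per the submitters' processing notes, the tools were TopHat2 2.0.14 and HTSeq 0.6.0 and the build mm10. The annotation, strand setting and handling of multi-mapping reads were not stated in the labels. Of 23509 symbols found in GENCODE M21, 23446 overlapped the gene of that name.

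Groups and replicate numbers came from sample titles, and columns were matched by the library codes in the labels. Genes were kept by filterByExpr (minimum count 10, minimum total 15). Counts were fitted with edgeR 4.0.16 in R 4.3.3 (TMM, 1 fit of 3 groups, 3 residual degrees of freedom, common dispersion 0.143), tested on simulated data. SE is the log2 fold change divided by the square root of F. Replicates correlated at r = 0.947, 0.983 and 0.955 in 12Q, 48Q and WT and differed by more than sampling noise (chi-square divided by its degrees of freedom 222, 34.4 and 155). Intervals and bounds cover counting error only. Alternatives were DESeq2 1.42.0, its size factors, library totals, no filter, a minimum count of 30, the 2 groups alone, a replicate block and each library left out. The rule for naming took the 10 genes, up to 6 called pathway genes per comparison and the 3 genes most like each called member, by log2 CPM with a prior count of 2. The genes, lists and tests were chosen with earlier results of these data known, and the promoter motifs after the values were seen.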

Additional observations from a re-analysis of the deposited data

Results flagged for a closer look

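The change from WT differed between the tumor genotypes for 3 genes, by the test of 12Q against 48Q itself. The difference of the log2 changes, 12Q minus 48Q, was -1.97 for Igf1, -5.57 for Igfbp2 and -6.94 for Igfbp6 (edgeR adjusted p = 0.0381, 0.0125 and 0.0157). Both 12Q libraries lay below both 48Q libraries for each gene. Since the 3 genes were picked by the test of these 4 libraries, that position adds no support. The Igf1 call was lost with any 1 of the 4 tumor libraries left out (edgeR adjusted p = 0.0910 to 0.202).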

How the results depend on the processing

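Igfbp2 and Igfbp6 stayed called lower in 12Q, against WT and against 48Q, under every alternative run. Of the 10 genes, 1 was called higher in 12Q than in WT with those 2 groups alone in the fit, and 1 to 3 with 1 library left out. In 48Q against WT, 2 were called higher with library totals, 2 with those 2 groups alone, 4 by DESeq2 and 0 to 2 with 1 library left out. DESeq2 called 1 lower there and 1 higher in 12Q against 48Q. Those called lower numbered 2 to 3 in 12Q against WT, and also 2 to 3 between 12Q and 48Q, with 1 library left out. Counts over all genes moved with the setting as well. For 12Q against WT, 1687 of 15050 genes were higher in the main fit and 997 of 14053 with those 2 groups alone. For 48Q against WT, 595 were higher and 185 lower in the main fit, and 1561 and 979 by DESeq2. For 12Q against 48Q, 152 were higher in the main fit and 920 by DESeq2. Whether the 10 genes moved more than all genes was not tested. In 48Q against WT, values that did not pass changed sign, to 0.16 for Igf1r with library totals, against -0.50 with TMM, and, with 1 library left out, within -0.10 to 0.56 for Igf1 and -0.0092 to 0.089 for Igf2r. The causes were not tested. Over the 10 genes and the named pathway genes, 459 recomputed values kept their direction and side of the threshold, 44 lost the call, 14 gained it and 3 changed sign. Results that were not called and stayed so are among the 459, so this tally does not give the share of calls that held.

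Whether replicate numbers pair the libraries cannot be settled with 2 libraries a group. Deviations of same-numbered libraries correlated at 0.0252 for 12Q and 48Q, 0.134 for 12Q and WT and -0.103 for 48Q and WT. With a replicate block the calls among the 10 genes were again 3 higher and 3 lower, 1 and 0, and 0 and 3.

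Over all genes, the fit of the 2 compared groups alone gave 997 higher and 890 lower genes in 12Q against WT, while 48Q against WT had 828 and 342, and 12Q against 48Q had 289 and 649. DESeq2 called 1561 higher and 979 lower in 48Q against WT and, for 12Q against 48Q, 920 and 1561. Without WT replicate 1, 48Q against WT gave 0 edgeR calls, with 2972 genes at an unadjusted p under 0.05. With 1 library left out, the counts ran from 993 to 1709 higher and 838 to 1346 lower in 12Q against WT, from 0 to 858 and 0 to 390 in 48Q against WT, and from 1 to 240 and 46 to 626 in 12Q against 48Q. Depth limits the size given for Igfbp2, Igfbp6 and Irs4 in 12Q, at 17, 8 and 2 counts over both libraries, and for Pappa and Pappa2, at 0.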
